A study of Homo sapiens with 9 samples.

Results

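Lipocalin 2 (LCN2) and 9 genes that take up, store, export or sense iron were followed in HCT116 cells, a human colorectal carcinoma cell line long in laboratory use, in which the ubiquitin-editing enzyme A20 (gene TNFAIP3) had been manipulated. The 10 genes were chosen by name out of the 58735 genes of the deposited expression table: LCN2, TFRC, SLC11A2, STEAP3, FTH1, FTL, NCOA4, SLC40A1, ACO1 and IREB2. In all, 9 libraries were sequenced, 3 each of wild-type cells (WT), cells with an A20 knockout (A20-KO) and knockout cells in which A20 had been put back (genotype label A20-OE, called A20-KO-rescue in the title of the series). All were untreated as far as the labels say, and the study's methods describe knockout with guide RNAs carried by the LentiCRISPR v2 lentiviral vector and list a pCMV-3xFlag-A20 expression plasmid without saying that it made the rescue cells. Neither source says whether each line was 1 clone, or whether the 3 libraries of a group came from separate cultures, so the p-values below measure the spread between libraries, which may be technical. LCN2 is a gene that the study drew from these same comparisons, and its values are given as a description without a test. The study also reports q-PCR of LCN2 in HCT116 and another colorectal cancer line, with changes that matched its sequencing result. Expression is given in FPKM, a read count divided by gene length and sequencing depth, and a level was compared between genes only on this length-corrected scale.

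Iron enters most cells as transferrin bound to the transferrin receptor TFRC. In the endosome it is reduced by STEAP3 and carried into the cytosol by SLC11A2 (DMT1). Surplus iron is stored in ferritin, a shell of FTH1 and FTL chains that NCOA4 delivers to the lysosome for breakdown, and it leaves the cell through SLC40A1 (ferroportin). ACO1 and IREB2 encode the iron regulatory proteins, which in iron-poor cells bind hairpins called iron-responsive elements in mRNAs: binding in the 5′UTR blocks translation of ferritin and ferroportin, while binding in the 3′UTR protects TFRC mRNA from decay. LCN2 is a secreted protein that binds iron-loaded siderophores, is made by neutrophils and inflamed epithelium, and is transcribed under NF-κB and C/EBP control.

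The hairpins are shown because the iron regulatory proteins act on mRNAs through such elements. A search of GENCODE 29 transcripts (GRCh38) used the letters CNNNNNCAGNGN on the transcript strand, with 5 paired bases above the bulged C and at least 4 of 6 paired below it, over 29 bases. It found such a hairpin in a UTR of 5 of the 10 members, and of 0.58% of the 19684 protein-coding genes searched. Capitals mark the loop, and each sequence reads 5′ to 3′.

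FTH1, 5′UTR, exon 1, chr11:61967574-61967602, minus strand: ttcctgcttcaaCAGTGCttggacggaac
FTL, 5′UTR, exon 1, chr19:48965335-48965363, plus strand: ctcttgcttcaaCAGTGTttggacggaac
SLC40A1, 5′UTR, exon 1, chr2:189580661-189580689, minus strand: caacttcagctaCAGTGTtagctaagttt
STEAP3, 3′UTR, exon 6, chr2:119263771-119263799, plus strand: ccaaggctcttgCAGAGCtagggctctga
TFRC, 3′UTR, exon 19, chr3:196051029-196051057, minus strand: atttatcagtgaCAGAGTtcactataaat
TFRC, 3′UTR, exon 19, chr3:196050979-196051007, minus strand: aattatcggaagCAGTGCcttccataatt
TFRC, 3′UTR, exon 19, chr3:196050575-196050603, minus strand: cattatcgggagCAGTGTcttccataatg
TFRC, 3′UTR, exon 19, chr3:196050510-196050538, minus strand: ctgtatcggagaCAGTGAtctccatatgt
TFRC, 3′UTR, exon 19, chr3:196050463-196050491, minus strand: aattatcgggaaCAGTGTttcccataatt

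Both ferritin chains and SLC40A1 carried the match upstream of the coding sequence, and TFRC carried 5 matches downstream of it, all in its last exon. The STEAP3 match is a match of letters and pairing only. For LCN2, SLC11A2, NCOA4, ACO1 and IREB2 the search found no hairpin with these letters and this pairing. Elements of another form would be missed, so this does not mean that these mRNAs lack one.

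**Figure D1:**
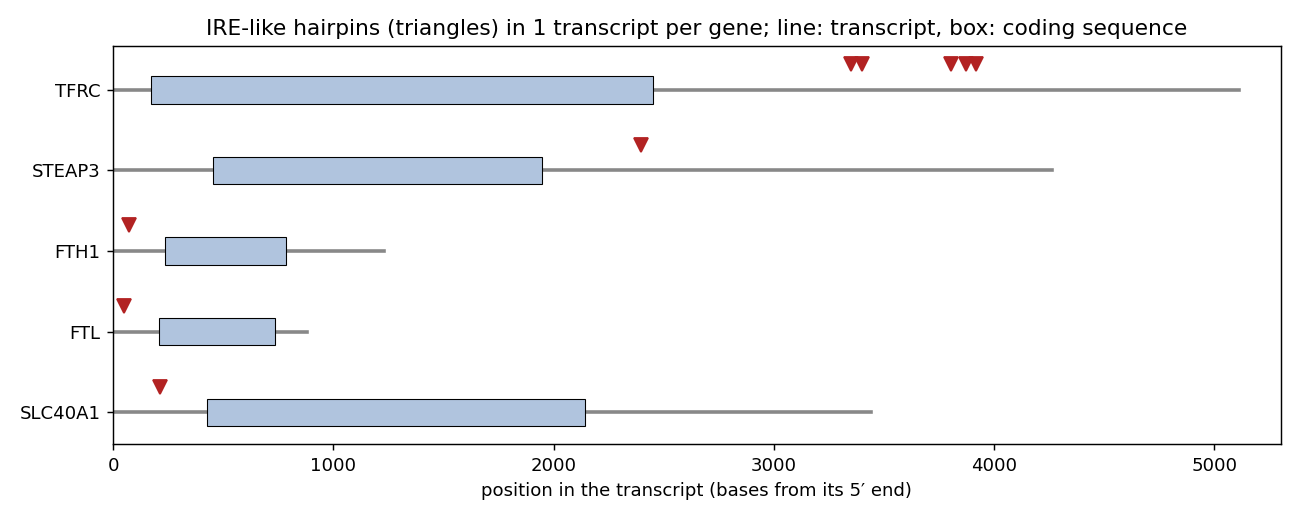
Position of the hairpin matches in 1 GENCODE 29 transcript of each of 5 genes, in bases from the 5′ end of the transcript; the grey line is the transcript, the box is the coding sequence and each triangle is 1 match. The triangles of FTH1, FTL and SLC40A1 lie left of the box, and the 5 of TFRC and the 1 of STEAP3 lie right of it.

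Recovered read totals ran from 23406222 to 24963691 per library, and every library resembled a library of its own group most closely. The targeted gene, TNFAIP3, did not show less mRNA in A20-KO than in WT: its mean was 0.802 ± 0.0665 FPKM in WT, 1.71 ± 0.593 in A20-KO and 60.6 ± 5.25 in A20-OE (SD, n = 3 each), so A20-KO lay 2.13-fold above WT (log2 fold change 0.95 ± 0.23, limma adjusted p = 0.018, no overlap; the exact two-sided permutation p was 0.1, the smallest that 3 against 3 allows). The A20-OE mean was 75.55-fold above WT and so far past the WT level. The mRNA level therefore checks the A20-OE label and not the A20-KO label. A20 protein was not measured in these libraries, and the study shows A20 expression of its knockout and rescue cells separately. Directions below are those between labelled libraries. WT replicate 1 stood apart, with 77 of 2212 well expressed genes (3.48%) at less than 0.6 times the lowest of the other 8 libraries, FTH1 among them. Mitochondrial genes took 7.52% to 10.1% of reads in WT, 9.18% to 11.9% in A20-KO and 12% to 14% in A20-OE, a shift whose part in the results was not tested. Of the 7 epithelial markers EPCAM had at least 6001 reads in every library, while KRT20 had 32 to 40 reads in WT and 152 to 192 in the other groups, and VIL1 at most 9 anywhere. The 7 neutrophil markers had at most 7 reads each with S100A8 and FCGR3B at 0, and of the fibroblast markers COL1A1 alone was well read (1110 to 1423 reads in WT, 2677 to 3421 in the other groups), with COL1A2 and DCN at no more than 4 reads. In such bulk samples, fewer cells making a transcript and less of it per cell cannot be told apart.

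LCN2 (ENSG00000148346, chr9:128149071-128153455 on GRCh38) was the member whose level differed most between groups relative to its own level, apart from SLC40A1. In WT it measured 3.83, 3.16 and 5.73 FPKM, from 152, 126 and 229 reads. In A20-KO it measured 0.283, 0.255 and 0.483 FPKM, from 11, 10 and 18 reads. In A20-OE it measured 2.03, 1.44 and 1.55 FPKM, from 76, 57 and 57 reads. The 3 groups did not overlap, with every A20-KO library lowest, every A20-OE library between, and every WT library highest. The mean was 4.24 ± 1.34 FPKM in WT, 0.340 ± 0.125 in A20-KO and 1.68 ± 0.317 in A20-OE (SD, n = 3 each). The A20-KO mean was thus 12.5-fold below WT, the A20-OE mean 4.92-fold above A20-KO and 2.53-fold below WT. On the log2(FPKM + 0.1) scale the differences were -3.29 ± 0.27, 2.03 ± 0.27 and -1.26 ± 0.27 (SE, given as a description and not as a test). With a pseudocount of 1 they shrank to -1.94, 0.99 and -0.95, since LCN2 is at 2.03 FPKM or less outside WT, and the values for A20-KO rest on 39 reads in all.

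Bases upstream of an LCN2 start are shown because its known NF-κB and C/EBP control is read there. The RefSeq start used follows base 128149452 and lies inside the GENCODE gene interval given above, so the windows precede that start and not the first annotated base of the gene. RefSeq promoter sequence (GRCh38.p14, plus strand) was searched on both strands for GGGNNNNNCC, an NF-κB-like string, and TTNCNNAA, a C/EBP-like string, over the 250 bases before the start. Capitals mark the match, and positions count from the transcription start.

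LCN2, GGGNNNNNCC, chr9:128149267-128149296: gcagcactccGGGAATGTCCCtcactctcc
LCN2, TTNCNNAA, chr9:128149299-128149328: gtccctctgtcTTGCCCAAtcctgaccagg

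The first window spans -186 to -157 and holds 2 overlapping matches, and the second spans -154 to -125 and holds 1. Such strings are common, the first in 54.4% and the second in 33.2% of the 35116 promoters of the table, and a match is not a bound site.

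**Figure D2:**
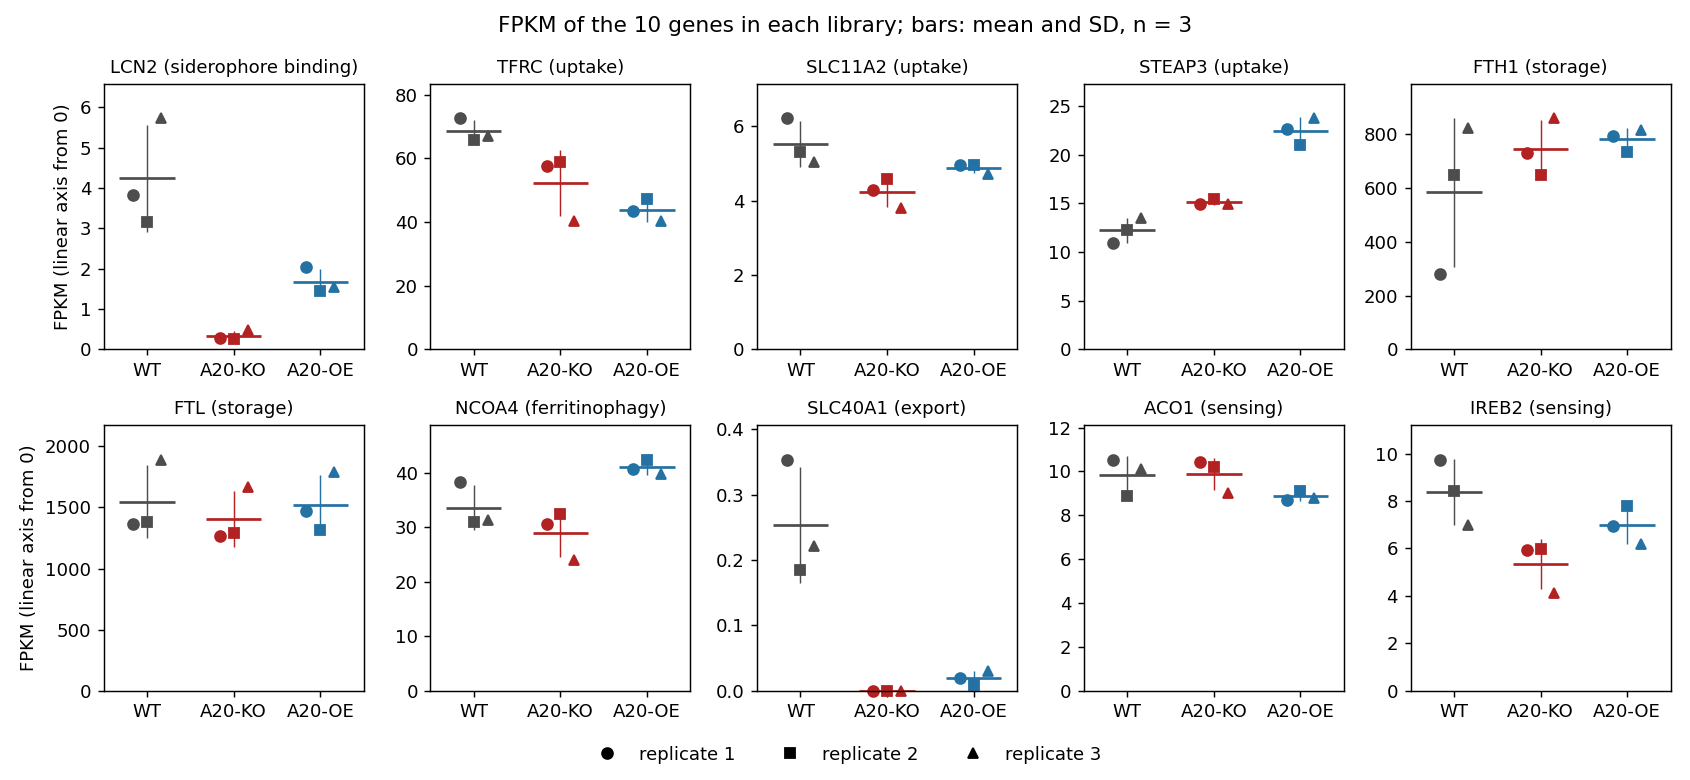
FPKM (linear axis from 0, 1 scale per panel) of the 10 genes in the 3 libraries of WT, A20-KO and A20-OE; each marker is 1 library, the horizontal bar is the mean and the vertical bar 1 SD. LCN2 and SLC40A1 have their lowest levels in A20-KO, STEAP3 is highest in A20-OE, and the low FTH1 point of 279.7 FPKM is WT replicate 1.

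Of the 9 iron genes, SLC40A1 differed about as strongly as LCN2 at a very low level and is described on its own below; among the other 8 the differences were small beside that of LCN2, and few passed the test. In limma fitted over 21636 genes with a mean of at least 0.1 FPKM, these 8 could be tested, SLC40A1 being below that limit. In A20-KO against WT, 2 of the 8 fell, IREB2 and SLC11A2, beside 22.3% of all genes tested that passed at an adjusted p under 0.05 (11.0% lower). In A20-OE against A20-KO, 2 of the 8 rose, STEAP3 and NCOA4, beside 8.97% of all genes (4.43% higher and 4.54% lower). In A20-OE against WT, STEAP3 rose and TFRC fell, beside 31.1% of all genes (15.7% higher and 15.4% lower). These shares are near the background or, at 8 genes, too few to be set apart from it. No tested iron gene both passed and changed by more than 2-fold, the threshold the study's methods add, beside 6.99%, 2.39% and 11.9% of all genes. The groups did not overlap for 4 of the 8 in each comparison, beside 38.1%, 35.4% and 45.3% of all genes. The median log2 fold change of the 8 was -0.17, 0.16 and -0.08 in the 3 comparisons, against -0.01, 0.01 and 0.03 over all genes tested. The 3 comparisons share their libraries pairwise and are not independent.

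**Figure D3:**
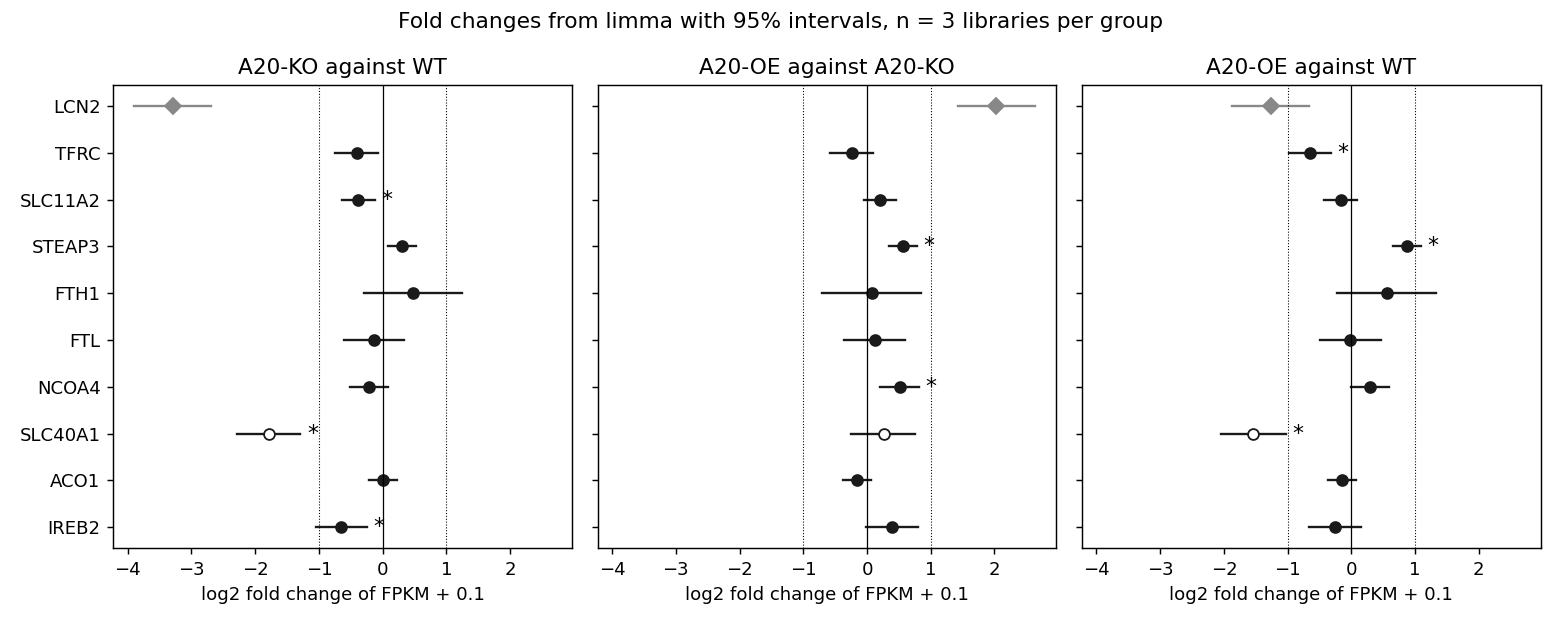
Log2 fold change of FPKM + 0.1 for the 10 genes in the 3 comparisons, with 95% intervals from limma (n = 3 libraries per group); stars mark an adjusted p under 0.05, dotted lines a 2-fold change, the grey diamonds LCN2, which was not tested, and open circles SLC40A1, from the fit with no filter on low values. The intervals of FTH1 are the widest of the tested genes, from -0.29 to 1.25 in A20-KO against WT. The stars of SLC40A1 are a description and not support, since it entered its fit almost only through its WT reads. The intervals of LCN2 are a description too, since the study drew LCN2 from these same comparisons.

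TFRC (ENSG00000072274, chr3:196027183-196082189), the receptor that brings in transferrin iron, was highest in WT and lowest in A20-OE. It measured 72.5, 65.9 and 67.0 FPKM in WT, 57.7, 58.9 and 40.3 in A20-KO and 43.4, 47.3 and 40.2 in A20-OE. All WT libraries lay above all others, while A20-KO and A20-OE overlapped. A20-OE was lower than WT by a log2 fold change of -0.65 ± 0.15 (SE; adjusted p = 0.0092), and this call was kept in all 9 fits that left out 1 library. The intermediate A20-KO level did not pass against either neighbour, with a log2 fold change of -0.41 ± 0.15 against WT (adjusted p = 0.079) and a further -0.24 to A20-OE (95% interval -0.58 to 0.09, adjusted p = 0.34).

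SLC11A2 (ENSG00000110911, chr12:50979401-51028566), which moves ferrous iron across membranes, was lowest in A20-KO. It measured 6.21, 5.31 and 5.03 FPKM in WT, 4.29, 4.58 and 3.8 in A20-KO and 4.95, 4.95 and 4.72 in A20-OE. The groups did not overlap, yet the distances were small. The log2 fold change of A20-KO against WT was -0.38 ± 0.11 (adjusted p = 0.045), a call that held in 1 of 9 fits leaving out 1 library (adjusted p 0.037 to 0.11). The A20-OE level lay between and did not pass against A20-KO (0.21, 95% interval -0.05 to 0.46) or WT (-0.17, 95% interval -0.43 to 0.09).

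STEAP3 (ENSG00000115107, chr2:119223831-119265652), the endosomal ferrireductase, was lowest in WT and highest in A20-OE. It measured 10.9, 12.3 and 13.5 FPKM in WT, 14.9, 15.4 and 15 in A20-KO and 22.6, 21.0 and 23.7 in A20-OE. No group overlapped another. A20-OE exceeded WT by a log2 fold change of 0.87 ± 0.10 (adjusted p = 0.00025, passing in all 9 fits that left out 1 library) and A20-KO by 0.57 ± 0.10 (adjusted p = 0.011, passing in 7 of 9, lost without A20-KO replicate 1 or A20-OE replicate 1). A20-KO against WT gave 0.30 ± 0.10 (adjusted p = 0.054). The antisense gene STEAP3-AS1 shares 11.0% of the exonic bases of STEAP3 on the opposite strand and had 3 to 25 reads per library, beside 1239 to 2486 for STEAP3. Whether strand was used in counting is not given in the sources used here.

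FTH1 (ENSG00000167996, chr11:61959718-61967660) and FTL (ENSG00000087086, chr19:48965301-48966878), the heavy and light ferritin chains, were by far the most abundant members and passed in no comparison. FTH1 measured 279.7, 646 and 823 FPKM in WT, 728, 647 and 858 in A20-KO and 793, 733 and 813 in A20-OE. The first of these values, from WT replicate 1, was 0.433 times the lowest of the other 8 libraries, and without that library the log2 fold changes against WT went from 0.48 to 0.02 for A20-KO and from 0.56 to 0.09 for A20-OE. FTL measured 1367, 1379 and 1892 FPKM in WT, 1263, 1289 and 1669 in A20-KO and 1468, 1317 and 1787 in A20-OE, and was highest in the library numbered 3 of every group. The FTL log2 fold changes were -0.13 (95% interval -0.61 to 0.34) for A20-KO against WT, 0.12 (-0.36 to 0.59) for A20-OE against A20-KO and -0.02 (-0.49 to 0.46) for A20-OE against WT. Ferritin protein, which the hairpins above control, was not measured in these libraries. Of the exonic bases of FTH1, 62.4% are shared with BEST1 on the opposite strand, which had 5 to 25 reads per library, and the near-identical pseudogene FTH1P7 had 153 to 670 reads, the highest in WT replicate 1 (543) and A20-KO replicate 2 (670). FTH1 levels are uncertain for these reasons, and how many reads were lost over shared bases or to pseudogenes is not known.

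NCOA4 (ENSG00000266412, chr10:46005088-46030714), the receptor that carries ferritin to the lysosome, was highest in A20-OE. It measured 38.4, 31.1 and 31.4 FPKM in WT, 30.5, 32.5 and 24.0 in A20-KO and 40.8, 42.5 and 39.7 in A20-OE. Every A20-OE library lay above every other library. The rise from A20-KO to A20-OE was 0.51 ± 0.13 on the log2 scale (adjusted p = 0.046), and it passed in 1 of 9 fits leaving out 1 library (adjusted p 0.025 to 0.15). Against WT, A20-OE gave 0.29 (adjusted p = 0.13) and A20-KO gave -0.22 (adjusted p = 0.28).

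SLC40A1 (ENSG00000138449, chr2:189560579-189583758), the only known iron exporter of the cell, was barely transcribed and was read almost only in WT. It measured 0.354, 0.185 and 0.222 FPKM in WT from 38, 20 and 24 reads, 0 in all 3 A20-KO libraries, and 0.0198, 0.00931 and 0.0302 FPKM in A20-OE from 2, 1 and 3 reads. WT overlapped neither other group. Against a floor of 3 reads in each A20-KO library (0.0277 to 0.0302 FPKM over all libraries), the WT mean was at least 8.8-fold higher. The ratio of WT to A20-OE was 13, with an exact 95% interval of 5.72 to 36.5 that covers counting error only. Because the mean of 0.0910 FPKM is under the filter, the test was made in a fit over all 35120 genes with any read: limma gave an adjusted p of 0.002 for A20-KO and 0.002 for A20-OE against WT, in which 11.4% and 17.1% of genes passed, and both calls were kept in all 9 fits that left out 1 library. Without the 3 libraries numbered 3 the adjusted p of A20-KO against WT was 0.051. In limma-voom on the recovered reads these adjusted p-values were 4.8e-07 and 0.00046. The log2 fold change of A20-KO against WT followed the pseudocount, from -0.32 at 1 to -4.67 at 0.01. SLC40A1 entered these fits almost only through its WT reads, and the A20-KO values, all 0, have no spread. The p-values are therefore given as a description and not as support. A20-KO and A20-OE were both at or under the floor, and no fold is given between them.

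ACO1 (ENSG00000122729, chr9:32384603-32454769) and IREB2 (ENSG00000136381, chr15:78437431-78501456) encode the iron regulatory proteins; ACO1 passed in no comparison and IREB2 in 1. ACO1 measured 10.5, 8.88 and 10.1 FPKM in WT, 10.4, 10.2 and 9.03 in A20-KO and 8.71, 9.12 and 8.79 in A20-OE. Its groups overlapped in every comparison, with a log2 fold change of 0.01 (95% interval -0.22 to 0.23) for A20-KO against WT and -0.14 (-0.37 to 0.08) for A20-OE against WT. IREB2 measured 9.75, 8.43 and 6.98 FPKM in WT, 5.93, 5.97 and 4.11 in A20-KO and 6.95, 7.78 and 6.20 in A20-OE. Every A20-KO library was below every other library, while WT and A20-OE overlapped. A20-KO was lower than WT by -0.65 ± 0.18 on the log2 scale (adjusted p = 0.029), which passed in 5 of 9 fits leaving out 1 library and was lost without WT replicate 1, WT replicate 2, A20-KO replicate 3 or A20-OE replicate 1 (highest adjusted p 0.086). A20-OE did not pass against A20-KO (0.39, 95% interval -0.01 to 0.80, adjusted p = 0.20) or WT (-0.26, adjusted p = 0.32).

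The profile of LCN2 over the 9 libraries was then set beside those of 10973 protein-coding genes with a mean of at least 1 FPKM, as a description, since all values come from the same libraries and groups. Most alike were UTP14A, a ribosome biogenesis factor, with a Pearson r of 0.99, NME6 (0.975), DHDDS (0.975), the transcription factor RUNX2 (0.973) and PCGF6 (0.96). Like LCN2, these 5 genes had their lowest mean in A20-KO, which follows from choosing them by correlation with it. The means of RUNX2, for example, were 3.07 FPKM in WT, 0.601 in A20-KO and 1.71 in A20-OE. Most opposite were the growth factor signalling inhibitor SPRY4 (-0.976), the cholesterol synthesis enzyme SQLE (-0.974), MDGA1 (-0.972), PADI3 (-0.965) and ABHD3 (-0.963). Of the iron genes, SLC40A1 (0.828), SLC11A2 (0.754) and IREB2 (0.692) were most like LCN2, and the other 6 ranged from -0.286 to 0.422. SLC40A1 is under the 1 FPKM limit of the compared genes, and its r rests on WT reads against 0 in A20-KO and 1 to 3 in A20-OE.

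The wider pathways were described by 8 lists that together hold 124 genes of the table, by the number whose adjusted p was under 0.05. These counts stand beside the 22.3%, 8.97% and 31.1% of all genes given above. By direction, 11.3%, 4.43% and 15.7% of all genes were higher and 11.0%, 4.54% and 15.4% lower in the 3 comparisons. In A20-OE against WT the median log2 fold change was 0.07 for storage, -0.24 for sensing, -0.32 for iron-sulfur, -0.18 for heme, 0.71 for LCN2 partner and 0.61 for LCN2 regulator genes, beside 0.03 for all genes. Leaving out 1 library moved the counts most in A20-OE against A20-KO, where the number of iron-sulfur genes that fell ran from 0 to 5 and of sensing genes that rose from 0 to 3, with 5 and 3 without WT replicate 1. Of 11 tested uptake genes, 1 rose and 3 fell in A20-KO against WT, 1 fell in A20-OE against A20-KO and 5 fell in A20-OE against WT (3 to 6 over fits leaving out 1 library), with a median log2 fold change of -0.42 in the last. STEAP1, a metalloreductase, went from 9.63 ± 2.08 FPKM in WT to 5.89 ± 0.731 in A20-KO and 4.46 ± 0.395 in A20-OE (SD, n = 3; A20-OE against WT adjusted p = 0.0012). MCOLN1, a lysosomal channel that releases iron, went from 7.05 ± 0.988 in WT to 3.68 ± 0.278 in A20-OE (adjusted p = 0.0018), and the metal importer SLC39A8 fell from 5.68 ± 0.733 in WT to 3.90 ± 0.375 in A20-KO (adjusted p = 0.014). The ferrireductase CYBRD1 was the 1 gene that rose, from 4.76 ± 0.731 to 6.96 ± 1.04 FPKM in A20-KO (adjusted p = 0.029), a call kept in 4 of 9 fits leaving out 1 library.

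Of 12 tested storage, chaperone and ferritinophagy genes, 3 rose in A20-KO against WT, 1 rose in A20-OE against A20-KO, and 5 rose and 1 fell in A20-OE against WT (3 to 5 rising over fits leaving out 1 library). HMOX1, the heme oxygenase that frees iron from heme, rose at both steps, from 10.6 ± 2.77 FPKM in WT to 19.9 ± 2.49 in A20-KO and 56.0 ± 3.53 in A20-OE (SD, n = 3). Its log2 fold changes were 0.94 ± 0.18 (adjusted p = 0.0063), 1.49 ± 0.18 (adjusted p = 0.0028) and, for A20-OE against WT, 2.43 ± 0.18 (adjusted p = 3.1e-05), and all 3 calls were kept in every fit leaving out 1 library. The biliverdin reductase BLVRB was at 33.5 ± 4.53 FPKM in WT and 66.9 ± 10.9 in A20-OE (adjusted p = 0.0017). The other biliverdin reductase of the list, BLVRA, passed in no comparison, with a log2 fold change of -0.24 in A20-OE against WT (limma adjusted p = 0.11). The poly(rC)-binding protein PCBP3 was at 0.239 ± 0.0316 FPKM in WT and 0.903 ± 0.128 in A20-KO (adjusted p = 0.00075).

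Of 13 tested export and systemic regulation genes, 5 rose and 1 fell in A20-KO against WT, 2 rose and 1 fell in A20-OE against A20-KO, and 8 rose and 2 fell in A20-OE against WT, with a median log2 fold change of 0.79 in the last. Over fits leaving out 1 library, 1 to 3 rose in the second. The ferroxidase HEPH, which works with SLC40A1, went the other way from it, at 0.145 ± 0.0566 FPKM in WT, 0.712 ± 0.118 in A20-KO and 0.973 ± 0.139 in A20-OE (adjusted p = 0.0016 and 0.00027 against WT). ID1, a target of BMP signalling, went from 322 ± 40.8 FPKM in WT to 739.8 ± 146 in A20-KO (adjusted p = 0.0027), and SMAD6, an inhibitor of it, from 1.61 ± 0.242 in WT to 4.47 ± 0.254 in A20-OE (adjusted p = 9.4e-05). The ligand gene BMP2, 1 of those counted as fallen against WT, had 0.401 ± 0.0668 FPKM in WT and no read in any A20-KO library; it entered the test only through its WT level, and no p is given. NDFIP1, a ubiquitin ligase adaptor known to act on SLC11A2, rose at both steps, from 22.6 ± 1.01 to 35.5 ± 1.44 and 54.1 ± 0.988 FPKM (A20-OE against A20-KO adjusted p = 0.004).

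Of 12 cellular iron sensing genes, 3 rose and 3 fell in A20-KO against WT, 3 rose and 1 fell in A20-OE against A20-KO, and 4 rose and 3 fell in A20-OE against WT. Over fits leaving out 1 library, 1 to 2 rose and 2 to 3 fell in the first, and 0 to 3 rose and 0 to 2 fell in the second. FBXL5, the iron-sensing ubiquitin ligase subunit that degrades the IREB2 protein, was at 4.92 ± 0.611 FPKM in WT, 4.60 ± 0.661 in A20-KO and 6.75 ± 0.060 in A20-OE (A20-OE against A20-KO adjusted p = 0.036, kept in 2 of 9 fits leaving out 1 library). Of the hypoxia factors, HIF1A went from 36.2 ± 10.6 FPKM in WT to 23 ± 2.35 in A20-KO (adjusted p = 0.036, kept in 2 of 9 such fits), while EPAS1 rose from 13.9 ± 2.43 in A20-KO to 20.5 ± 1.06 in A20-OE (adjusted p = 0.031, kept in 4 of 9). The prolyl hydroxylase EGLN3 rose from 3.18 ± 0.156 in A20-KO to 5.26 ± 0.137 in A20-OE (adjusted p = 0.011, kept in 8 of 9). ZFP36, which binds TFRC mRNA and promotes its decay, rose from 12.9 ± 3.93 FPKM in WT to 29.9 ± 3.21 in A20-KO (adjusted p = 0.0034).

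Of 25 tested iron-sulfur cluster genes, 6 fell in A20-KO against WT, 2 fell in A20-OE against A20-KO, and 1 rose and 10 fell in A20-OE against WT. Over fits leaving out 1 library, 3 to 6, 0 to 5 and 7 to 11 fell. The mitochondrial chaperone HSPA9 fell from 73.3 ± 7.30 FPKM in WT to 44.0 ± 2.49 in A20-KO (adjusted p = 0.0012) and was at 43.4 ± 1.51 in A20-OE. NDOR1, of the cytosolic assembly machinery, fell from 19.4 ± 4.53 in WT to 7.56 ± 0.433 in A20-OE (adjusted p = 0.00041), and the glutaredoxin GLRX5 from 29.8 ± 4.91 in A20-KO to 18 ± 0.815 in A20-OE (adjusted p = 0.014, kept in 6 of 9 such fits). GLRX5 shares 13.7% of its exonic bases with the antisense gene SNHG10. The mitochondrial read share was highest in A20-OE, at 12% or more, and its part in these counts was not tested.

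Of 19 heme genes, 4 rose and 1 fell in A20-KO against WT, 1 rose and 1 fell in A20-OE against A20-KO, and 3 rose and 7 fell in A20-OE against WT. Over fits leaving out 1 library, 2 to 4 rose in the first, 0 to 3 fell in the second and 4 to 7 fell in the last. The mitochondrial iron importer SLC25A37 rose at both steps, from 12.8 ± 0.856 FPKM in WT to 18 ± 0.889 in A20-KO (adjusted p = 0.0043) and 29.5 ± 0.976 in A20-OE (adjusted p = 0.0029 against A20-KO). The transporter ABCB10 fell from 8.01 ± 0.706 FPKM in WT to 5.16 ± 0.998 in A20-KO (adjusted p = 0.015, kept in 8 of 9 fits leaving out 1 library), and the synthesis enzyme UROD was at 16.7 ± 2.75 in A20-KO and 11.2 ± 0.984 in A20-OE (adjusted p = 0.03, kept in 3 of 9).

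Of 10 tested LCN2 partner and lipocalin genes, 4 rose in A20-KO against WT and 4 in A20-OE against WT. In A20-OE against A20-KO, 0 passed in limma or in limma-voom, and 0 had an unadjusted p under 0.05. SLC22A17, a cell-surface receptor for LCN2, was at 2.56 ± 0.711 FPKM in WT, 6.93 ± 1.42 in A20-KO and 6.70 ± 0.596 in A20-OE (adjusted p = 0.0024 and 0.0014 against WT). Both manipulated groups thus lay above WT for the receptor and below WT for LCN2. The lipocalin LCN12 also rose, against the direction of LCN2 (0.573 ± 0.233 in WT and 1.97 ± 0.547 in A20-KO, adjusted p = 0.0051). PTGDS is counted among the 4, but with at most 32 reads in any library it entered the test only through the groups where it is high, and no p is given. PTGDS shares 23.4% of its exonic bases with another annotated gene on its own strand.

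Of 8 tested regulators of LCN2 transcription, 2 rose and 1 fell in A20-KO against WT, 2 rose and 1 fell in A20-OE against A20-KO, and 5 rose and 1 fell in A20-OE against WT. Over fits leaving out 1 library, 1 to 2 rose in the first and 0 to 3 in the second. NFKB1, which encodes the p105 and p50 subunits of NF-κB, was the 1 that fell in each, from 7.48 ± 0.303 FPKM in WT to 5.17 ± 0.523 in A20-KO (adjusted p = 0.0085) and 3.39 ± 0.222 in A20-OE (adjusted p = 0.014 against A20-KO, kept in 7 of 9 fits leaving out 1 library). The epithelial factor ELF3 rose from 7.96 ± 1.43 in WT to 13.2 ± 1.46 in A20-KO (adjusted p = 0.0069) and 19.7 ± 1.10 in A20-OE (adjusted p = 0.04 against A20-KO, kept in 2 of 9 fits leaving out 1 library). CEBPB was at 37.6 ± 14.1 FPKM in WT, 73.5 ± 9.77 in A20-KO and 66.1 ± 7.49 in A20-OE (A20-KO against WT adjusted p = 0.02, kept in 7 of 9), and STAT3 was at 9.73 ± 0.219, 13.1 ± 2.43 and 19.1 ± 0.939 (A20-OE against WT adjusted p = 0.00075). None of these 4, named because they passed, had its lowest level in A20-KO, where LCN2 was lowest. CEBPD, which did not pass, was slightly lowest there. Its log2 fold changes were -0.04 for A20-KO against WT and 0.12 for A20-OE against A20-KO (limma adjusted p = 0.95 and 0.84). The activity of these factors was not measured, and their part in the LCN2 level was not tested. CEBPB and ELF3 share 11.8% and 9.2% of their exonic bases with antisense genes.

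**Figure D4:**
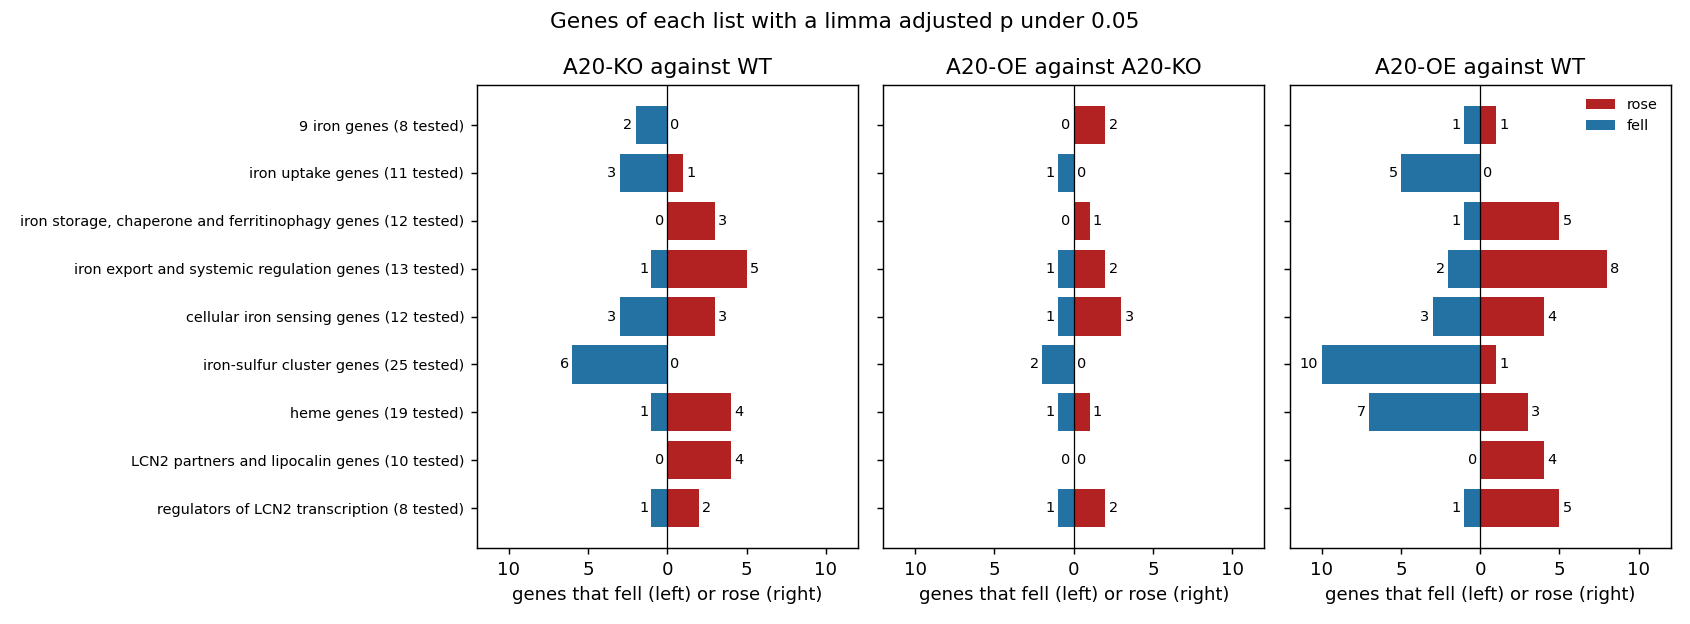
Number of genes in the 9 iron genes and in each of the 8 lists whose limma adjusted p was under 0.05, rising (red, right) or falling (blue, left), in the 3 comparisons; the number tested stands beside each name. In A20-OE against WT, 10 of 25 iron-sulfur cluster genes fell and 8 of 13 export and systemic regulation genes rose, beside 15.4% of all genes tested that fell and 15.7% that rose.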

How the data were processed

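Poly(A)-selected RNA was sequenced as 150 bp paired reads. Per the labels, HISAT2 2.0.5 and featureCounts 1.5.0-p3 were used; the genome build and strand setting of the counting are not given in the sources used here. The authors deposited FPKM per gene, calculated from counts and gene length. All 58735 gene identifiers matched GENCODE 29 (GRCh38), each with the same start and end. From FPKM and gene length, whole reads were recovered for 100% of values above 0 (tolerance 0.01). FPKM were tested as log2(FPKM + 0.1) with limma 3.58.1 (lmFit and eBayes with a mean-variance trend, R 4.3.3) over genes with a mean of at least 0.1 FPKM, all 3 groups in 1 fit, with Benjamini-Hochberg adjustment over all genes tested. The scripts were tested on simulated data. The study's own comparison was a test of counts; here limma-voom on the recovered reads was an alternative. The members and lists were chosen with earlier results of these data known. The text names the members, TNFAIP3, up to 3 genes per list and comparison with the largest fold change among those that passed and did not overlap, and the 5 genes most like and most opposite to LCN2. Alternatives changed the pseudocount, filter, scaling, groups in the fit, replicate block, test and libraries.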

Additional observations from a re-analysis of the deposited data

How the results depend on the processing

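The number of iron genes that passed in A20-KO against WT was 2 in the main fit. With no filter it was 1, SLC40A1 alone, a call that rests on its WT reads and is not support. IREB2 then had a limma adjusted p of 0.051 and SLC11A2 of 0.058. The number was 0 in a fit of the 2 groups alone, 4 with replicate numbers blocked and 1 without the 3 libraries numbered 3 (a setting chosen after seeing the data). In A20-OE against A20-KO it was 2, and it was 1 with no filter, 1 in limma-voom with or without the filter, and 0 without the 3 libraries numbered 3. Leaving out 1 library gave 0 to 3, 0 to 2 and, for A20-OE against WT, 2 to 3. TFRC and STEAP3 in A20-OE against WT passed in all 9 leave-outs and all 10 other settings. Directions turned in values near 0 only, and over all leave-outs these ranged as follows. For FTL, A20-KO against WT ranged from -0.26 to 0.02 (without WT replicate 3), A20-OE against A20-KO from -0.01 (without A20-OE replicate 3) to 0.24, and A20-OE against WT from -0.14 to 0.14, being 0.14, 0.01 and 0.08 without WT replicate 3, A20-OE replicate 1 and A20-OE replicate 2, and 0.02 without the libraries numbered 3. For ACO1, A20-KO against WT was -0.01 in both limma-voom fits and ranged from -0.06 to 0.07, being -0.06, -0.03 and -0.02 without WT replicate 2, A20-KO replicate 1 and A20-KO replicate 2. For FTH1, A20-OE against A20-KO ranged from -0.02 (without A20-KO replicate 2) to 0.18. The causes were not tested.

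Over all genes, calls in A20-KO against WT went from 4816 to 3060 in the fit of 2 groups and to 2889 without the libraries numbered 3, and calls in A20-OE against A20-KO from 1940 to 392 without those libraries and to 3237 without WT replicate 1. With the replicate block they went from 4816 to 5602, 1940 to 2577 and 6735 to 7348, and TFRC and STEAP3 then passed in A20-KO against WT (adjusted p = 0.043 and 0.044). Whether the numbers pair the samples is not settled by their correlations. Deviations of same-numbered libraries correlated at -0.027 to 0.121 (9 pairs, mean 0.037). Those of differently numbered ones correlated at -0.131 to 0.072 (18 pairs, mean -0.018). The highest values were 0.121 for replicates 3 of A20-KO and A20-OE and 0.098 for replicates 3 of WT and A20-KO. The main fit took no account of replicate number. Depth limits SLC40A1 and, in A20-KO, LCN2.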
